A study of Mus musculus with 12 samples.

Results

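The cardiac calcium handling genes are a group of 10 genes whose products release, pump, buffer or exchange calcium in heart muscle cells, or regulate these steps. They were taken from the counts and TPM tables by gene symbol, as the genes named Ryr2, Atp2a2, Pln, Casq2, Trdn, Hrc, Jph2, Slc8a1, Camk2d and Itpr2, which makes 10 of the 53801 genes in those tables. RNA of whole mouse hearts was sequenced after sham surgery, 1 day after acute myocardial infarction (AMI) and 7 days after AMI, with 4 hearts per group and 1 library per heart. All 12 hearts came from male C57BL/6N mice that were 10 to 14 weeks old. In the day 1 AMI and day 7 AMI groups the left anterior descending coronary artery was tied off permanently with a suture, and the hearts were taken 1 or 7 days later. The sham group is labelled Sham, and the day on which its hearts were taken is not stated. Whole hearts were used, so infarcted and spared tissue were not separated. The sham libraries held 24558117, 26573727, 23253576 and 24806576 counts in replicates 1 to 4. The day 1 AMI libraries held 25541858, 32166517, 30158419 and 29994671 counts, and the day 7 AMI libraries 28738082, 23204551, 24597384 and 25134239.

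In a heart muscle cell each beat begins with calcium entry through L-type channels, which opens ryanodine receptors and releases a larger amount of calcium from the sarcoplasmic reticulum. Relaxation follows when the SERCA pump, held back by phospholamban, returns calcium to the reticulum and the sodium-calcium exchanger moves calcium out of the cell. Lower SERCA activity and altered calcium release are well known features of failing heart muscle.

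Read counts were scaled with edgeR's TMM factors and are given as CPM, counts relative to the scaled library total. All 10 genes were among the 15306 kept by filterByExpr of edgeR, which drops genes with few counts. Each comparison used edgeR's quasi-likelihood test on 1 fit of the 12 libraries, and a gene was called where its false discovery rate (FDR, by Benjamini-Hochberg over all 15306 genes) was below 0.05. The authors' rule for a differentially expressed gene (DEG) adds a fold change (FC) of 2 or greater. Log2 FC is positive where the first group named is higher. A second scale, called the contractile scale, set each library size to the geometric mean count of 12 contractile genes, so that a gene is read relative to contractile transcripts of the same heart. The median log2 FC of all genes was -0.012, 0.026 and 0.021 on the TMM scale for day 1 AMI against sham, day 7 AMI against sham and day 7 AMI against day 1 AMI. It was 0.42, 0.74 and 0.30 on the contractile scale, 0.26, 0.42 and 0.15 with library totals alone, and 0.23, 0.44 and 0.18 on log2(TPM + 1). A value on those 3 scalings is therefore read against that shift. On the TMM scale 3360 higher and 3044 lower genes were called on day 1, 4727 higher and 4353 lower on day 7, and 3699 higher and 3496 lower between the 2 days. With library totals alone the same splits were 6288 higher and 1063 lower, 8229 higher and 1660 lower, and 4770 higher and 2173 lower. On log2(TPM + 1) with limma they were 6171 higher and 737 lower, 9423 higher and 1023 lower, and 5402 higher and 1302 lower. On the contractile scale they were 7905 higher and 553 lower, 10848 higher and 661 lower, and 5957 higher and 1031 lower.

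All 10 genes are protein-coding in GENCODE on GRCm38. The release channel gene Ryr2 (ENSMUSG00000021313) lies at chr13:11553102-12106945. The pump gene Atp2a2 (ENSMUSG00000029467) lies at chr5:122453513-122502225, and Pln (ENSMUSG00000038583), which encodes its inhibitor, at chr10:53337667-53345987. The genes of the luminal calcium buffer and release complex are Casq2 (ENSMUSG00000027861) at chr3:102086415-102146514, Trdn (ENSMUSG00000019787) at chr10:33080554-33476709 and Hrc (ENSMUSG00000038239) at chr7:45335290-45338974. The junction gene Jph2 (ENSMUSG00000017817) lies at chr2:163336242-163397993, and the exchanger gene Slc8a1 (ENSMUSG00000054640) at chr17:81373105-81738377. The kinase gene Camk2d (ENSMUSG00000053819) lies at chr3:126596302-126846326, and Itpr2 (ENSMUSG00000030287), an inositol trisphosphate receptor gene, at chr6:146108299-146502223. Exons of Cep85l and Gm47644 on the opposite strand cover 64.7% of the exon bases of Pln. For Atp2a2 the share is 1.36% (Gm43361) and for Slc8a1 1.62% (AC122399.1 and Gm11096). The strand that was counted is not stated, so at these bases the genes cannot be told apart.

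RefSeq promoter windows, the 250 bases before the RefSeq gene start (GRCm38.p6), were matched for 8 of the 10 genes, and no window was matched for Atp2a2 or Trdn. The RefSeq start need not be the GENCODE start given above, and the Pln window runs past that start, the Camk2d window lies inside the GENCODE gene, and the Hrc and Slc8a1 windows end short of it. Windows are shown for Ryr2, Pln, Hrc and Jph2, whose CPM was lower in all 4 day 7 AMI hearts than in any sham heart, though in TPM the Ryr2 groups overlapped. They are also shown for Slc8a1, which was higher than sham in all 4 day 1 AMI hearts, and for Itpr2, which was so in all 4 day 7 AMI hearts, both in CPM and in TPM. Each runs 5′ to 3′ on the strand of its gene, with E-box letters (CANNTG, the same on both strands) in capitals. The windows lie at chr13:12106946-12107195 (minus strand), chr10:53337436-53337685 (plus), chr7:45335019-45335268 (plus), chr2:163397994-163398243 (minus), chr17:81738388-81738637 (minus) and chr6:146502224-146502473 (minus).
Ryr2: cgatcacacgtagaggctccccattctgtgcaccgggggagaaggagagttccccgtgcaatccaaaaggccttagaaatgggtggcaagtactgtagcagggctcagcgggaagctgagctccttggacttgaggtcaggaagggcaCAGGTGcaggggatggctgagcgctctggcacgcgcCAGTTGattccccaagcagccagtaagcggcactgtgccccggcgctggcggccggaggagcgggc
Pln: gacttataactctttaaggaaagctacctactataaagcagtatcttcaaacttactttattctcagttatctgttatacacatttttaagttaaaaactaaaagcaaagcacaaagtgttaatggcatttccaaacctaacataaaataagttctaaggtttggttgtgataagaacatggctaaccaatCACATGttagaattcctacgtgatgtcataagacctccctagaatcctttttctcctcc
Hrc: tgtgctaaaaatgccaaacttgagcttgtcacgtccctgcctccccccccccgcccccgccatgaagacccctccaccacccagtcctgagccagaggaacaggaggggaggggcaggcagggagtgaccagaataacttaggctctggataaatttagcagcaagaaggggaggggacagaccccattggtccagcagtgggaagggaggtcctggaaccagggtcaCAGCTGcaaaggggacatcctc
Jph2: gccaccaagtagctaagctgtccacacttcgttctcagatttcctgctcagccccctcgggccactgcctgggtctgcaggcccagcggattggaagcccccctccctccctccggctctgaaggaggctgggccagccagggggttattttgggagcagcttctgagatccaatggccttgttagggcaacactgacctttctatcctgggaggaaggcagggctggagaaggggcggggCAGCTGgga
Slc8a1: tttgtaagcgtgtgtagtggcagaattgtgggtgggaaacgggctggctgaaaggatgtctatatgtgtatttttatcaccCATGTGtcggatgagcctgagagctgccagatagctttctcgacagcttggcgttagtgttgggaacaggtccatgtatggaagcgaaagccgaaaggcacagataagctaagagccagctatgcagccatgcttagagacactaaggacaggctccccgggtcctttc
Itpr2: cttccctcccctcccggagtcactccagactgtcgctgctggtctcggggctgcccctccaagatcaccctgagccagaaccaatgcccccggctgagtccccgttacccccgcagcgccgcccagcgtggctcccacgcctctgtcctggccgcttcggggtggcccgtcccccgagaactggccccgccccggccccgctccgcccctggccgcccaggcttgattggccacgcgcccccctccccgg

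E-box letters were found 2 times in the windows of Ryr2 and Casq2 and 1 time in those of Pln, Hrc, Jph2 and Slc8a1, and they were absent from those of Camk2d and Itpr2. Of all 32851 windows, 66.2% held an E-box. The GC box GGGCGG, searched on both strands like the motifs that follow, was found 4 times for Itpr2, 3 times for Camk2d and 1 time each for Hrc and Jph2, against 32.7% of all windows with a match. The letters AGATAA, a motif of GATA factors, were found 1 time each for Pln and Slc8a1 (9.99% of all windows). TATAAA was found 1 time for Pln (12.4% of all windows), and the MCAT motif CATTCC in none of the 8 genes (12.6% of all windows). No matches of different motifs shared a base. The GC content was 74.4% for Itpr2 and 32.8% for Pln, against a median of 52.4% over all windows. A match describes letters only.

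TPM is the deposited measure of transcript level per length, and on this scale the 10 genes spanned a wide range. In sham hearts the TPM level was highest for Atp2a2, at 5708 ± 578 (SD, n = 4), and next for Pln, at 4691 ± 221. Hrc at 591 ± 34.0 TPM and Casq2 at 474 ± 27.8 TPM followed. The sham TPM levels of Ryr2 (224 ± 24.0), Trdn (221 ± 23.8) and Jph2 (218 ± 39.4) overlapped between neighbours, as did those of Slc8a1 (66.7 ± 15.6) and Camk2d (63.9 ± 4.66). Itpr2 had the lowest sham TPM, at 3.03 ± 0.302. In day 1 AMI hearts the TPM of Casq2 (494 ± 18.4, SD, n = 4) was above that of Hrc (355 ± 75.4) in every heart. The TPM ranges of Atp2a2 (4558 ± 981) and Pln (3559 ± 686) overlapped on day 1, as did those of Hrc with Jph2 (244 ± 25.1), Jph2 with Ryr2 (227 ± 29.4), and Trdn (153 ± 20.6) with Slc8a1 (121 ± 8.76). Camk2d and Itpr2 were lowest on day 1, at 68.9 ± 8.05 and 3.51 ± 0.471 TPM. In day 7 AMI hearts Atp2a2 and Pln stood at 3350.3 ± 310.3 and 3317 ± 159 TPM (SD, n = 4), with overlapping ranges, and Casq2 came next at 649.6 ± 81.9 TPM. The day 7 TPM ranges of Hrc (262 ± 37.0), Ryr2 (199.9 ± 16.8), Trdn (172 ± 20.7) and Jph2 (163 ± 14.5) overlapped from each to the next. So did those of Slc8a1 (99.3 ± 5.46) and Camk2d (87.0 ± 5.70), and Itpr2 was again lowest at 7.10 ± 0.664 TPM.

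Day 1 AMI against sham addresses the early response to infarction. Of the 10 genes, 7 fell (Ryr2, Atp2a2, Pln, Casq2, Trdn, Hrc and Itpr2) and 1 rose (Slc8a1) on the TMM scale, while on the contractile scale 2 fell and 1 rose and on log2(TPM + 1) 3 fell and 1 rose. Among all genes tested, 19.9% were lower and 22% higher on the TMM scale. By the DEG rule on the TMM scale 1 of the 10, Hrc, was lower and 0 were higher, against 2.98% and 7.79% of all genes, and on the contractile scale and log2(TPM + 1) 0 of the 10 met it. Of all 15306 genes 148 as lower and 2351 as higher met it on the contractile scale and 63 as lower and 957 as higher on log2(TPM + 1). The median log2 FC of the 10 genes was -0.31, against -0.012 for all genes. In RNA of whole hearts, fewer cells of a type and less RNA per cell cannot be told apart.

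Day 7 AMI against sham addresses the later response. In this comparison 6 genes fell (Ryr2, Atp2a2, Pln, Trdn, Hrc and Jph2) and 1 rose (Itpr2) on the TMM scale, while on the contractile scale 3 fell and 4 rose and on log2(TPM + 1) 5 fell and 4 rose. Of all genes, 28.4% were lower and 30.9% higher on the TMM scale. On the TMM scale Atp2a2, Pln and Hrc met the DEG rule as lower and 0 genes as higher, against 5.88% and 15.3% of all genes, but on the contractile scale and on log2(TPM + 1) only Hrc met it as lower, and Itpr2 met it as higher. Of all 15306 genes 135 as lower and 5422 as higher met it on the contractile scale and 111 as lower and 2668 as higher on log2(TPM + 1). The median log2 FC of the 10 genes was -0.76, against 0.026 for all genes.

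Day 7 AMI against day 1 AMI addresses the change between the 2 times. Here 5 genes were lower on day 7 (Ryr2, Atp2a2, Hrc, Jph2 and Slc8a1) and 1 was higher (Itpr2) on the TMM scale, while on the contractile scale and on log2(TPM + 1) 3 were lower and 3 higher. Among all genes 22.8% were lower and 24.2% higher on the TMM scale. By the DEG rule on the TMM scale 0 of the 10 were called, against 2.69% lower and 8.55% higher among all genes, while on the contractile scale Itpr2 met it as higher, as did 2172 of all genes, with 204 as lower. The median log2 FC was -0.28, against 0.021. Both comparisons with sham share the sham hearts, and the day 7 hearts enter both day 7 comparisons. The 10 genes together took 2.88, 3.00, 2.88 and 2.57% of the counts in sham replicates 1 to 4. This share was 2.05, 1.80, 2.28 and 2.70% in day 1 AMI replicates 1 to 4 and 1.68, 1.62, 1.79 and 1.65% in day 7 AMI replicates 1 to 4. The summed TPM of the 10 genes was 11504 to 12719 in sham, 8029 to 12186 on day 1 and 8076 to 8694 on day 7, and day 1 overlapped both other groups.

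**Figure D1:**
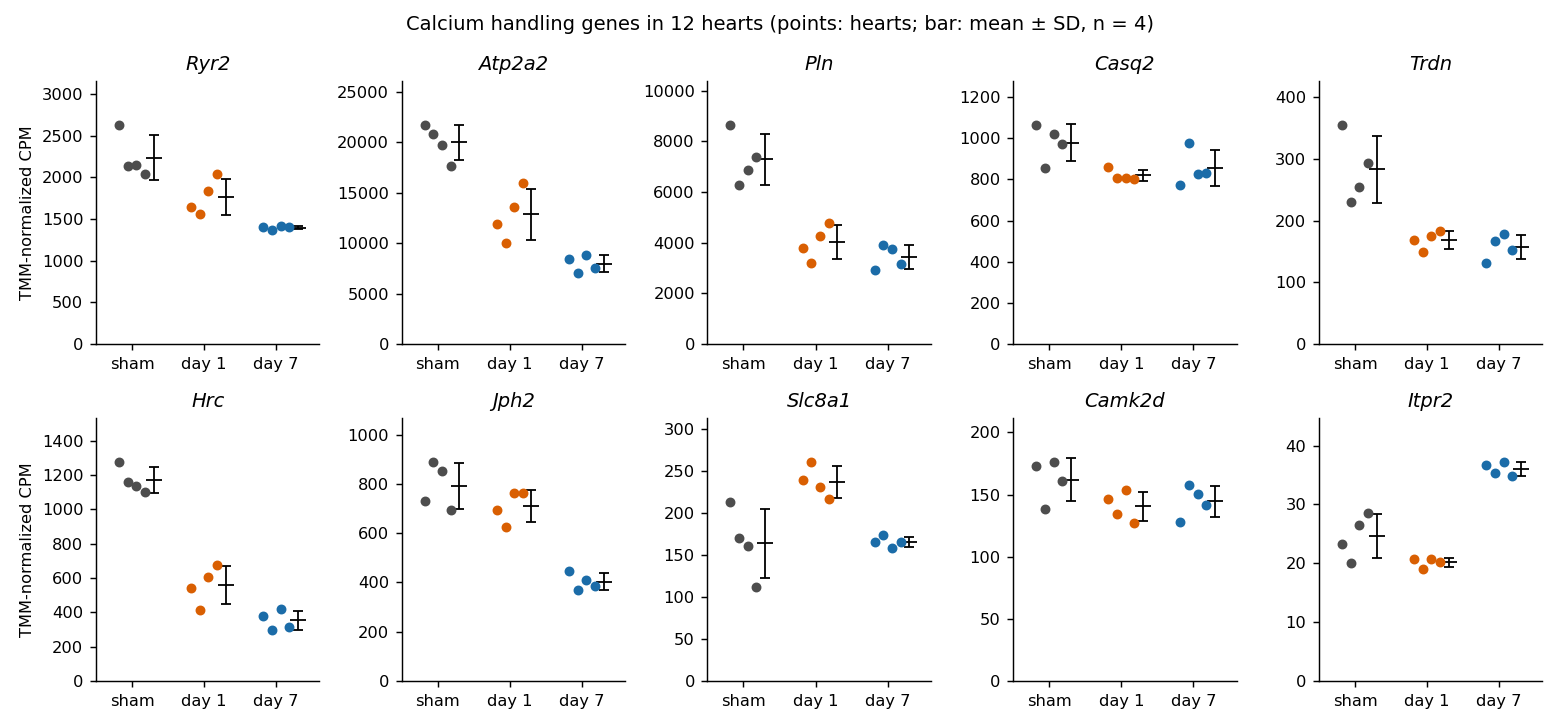
CPM (TMM scale) of each of the 10 calcium handling genes in every heart of the 3 groups (sham, then AMI at 1 and 7 days, n = 4 each), where points are hearts and the bars mark the group mean and SD. In CPM both AMI groups lie below sham for Atp2a2, Pln, Trdn and Hrc, day 7 lies apart for Jph2 and Itpr2, and day 1 is highest for Slc8a1, while on the contractile scale Atp2a2 and Trdn do not pass the test on day 1, nor Trdn and Jph2 on day 7 against sham, and in TPM day 1 overlaps sham for Atp2a2 and Pln and day 7 overlaps sham for Trdn.

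Ryr2 encodes the ryanodine receptor, the channel through which calcium leaves the sarcoplasmic reticulum. Its CPM was 2629, 2133, 2143 and 2040.1 in sham replicates 1 to 4, 1646, 1558, 1832 and 2044 in day 1 AMI replicates 1 to 4 and 1407, 1367, 1413 and 1408 in day 7 AMI replicates 1 to 4. All 4 day 7 hearts were below every other heart, and on day 1 replicate 4 was the only AMI heart that reached the sham range, while in TPM all 3 groups overlapped. Group means were 2236 ± 266, 1770 ± 216 and 1399 ± 21.6 CPM (SD, n = 4). Ryr2 fell by 0.34 (log2 FC, SE 0.10, FDR 0.0190) on day 1, but the value was -0.058 with library totals, 0.016 on log2(TPM + 1) and 0.096 on the contractile scale. It fell by 0.68 (FDR 7.46e-05) on day 7, but was -0.16 (FDR 0.202) on log2(TPM + 1) and 0.039 on the contractile scale. From day 1 to day 7 it fell by 0.34 (FDR 0.0160), but library totals (-0.21, FDR 0.0922), log2(TPM + 1) (-0.17, FDR 0.203) and the contractile scale (-0.057, FDR 0.742) did not call it. The day 1 call was lost without sham replicate 1 (-0.25 with FDR 0.0587), day 1 replicate 1 (-0.30 with FDR 0.0610) or day 1 replicate 2 (-0.28 with FDR 0.0638), and its FDR ran from 0.00329 to 0.914 over all alternatives.

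Atp2a2 encodes SERCA2, the pump that returns calcium to the reticulum. It stood at 21731, 20832, 19772 and 17670.2 CPM in sham replicates 1 to 4, 11872, 10049.5, 13637 and 15938 in day 1 AMI and 8486, 7066, 8880.2 and 7515 in day 7 AMI. In CPM no groups overlapped, and every heart was lower on day 7 than on day 1 and lower on day 1 than after sham, while in TPM day 1 overlapped both other groups. The means were 20001 ± 1748, 12874 ± 2513 and 7987 ± 840.3 CPM (SD, n = 4). Atp2a2 fell by 0.64 (log2 FC, SE 0.14, FDR 0.00257) on day 1 and by 1.32 (SE 0.14, FDR 2.79e-06) on day 7. Between the 2 days it fell by 0.69 (FDR 0.00113). The day 1 value did not pass on log2(TPM + 1) (-0.34, FDR 0.0854) or on the contractile scale (-0.21, FDR 0.228), while on log2(TPM + 1) the day 7 value was -0.77 (FDR 0.000657).

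Pln encodes phospholamban, the small protein that inhibits the pump. Sham replicates 1 to 4 had 8645, 6292, 6868 and 7368 CPM, day 1 AMI replicates 3812, 3216, 4252 and 4789.9, and day 7 AMI replicates 2925, 3901, 3739 and 3159. In CPM every AMI heart was below every sham heart and the day 1 and day 7 ranges overlapped, while in TPM day 1 overlapped sham as well. Group means were 7293 ± 1003, 4017 ± 667 and 3431 ± 464 CPM (SD, n = 4). Pln fell by 0.86 (log2 FC, SE 0.14, FDR 0.000380) on day 1 and by 1.09 (SE 0.14, FDR 1.75e-05) on day 7. Both still passed, at -0.42 and -0.50 on log2(TPM + 1) and -0.42 and -0.37 on the contractile scale. Day 7 against day 1 gave -0.23 (FDR 0.202) on the TMM scale and 0.053 on the contractile scale, and neither passed.

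Casq2 encodes calsequestrin, the main calcium buffer inside the reticulum. Its CPM was 1065, 858, 1019.8 and 971 in sham replicates 1 to 4, 862, 806, 809 and 802 in day 1 AMI and 773, 978, 829 and 833 in day 7 AMI. Sham replicate 2 was the lowest sham heart and lay just under day 1 replicate 1, and day 7 replicate 2 stood above the other day 7 hearts. In TPM all 4 day 7 hearts were above the other groups. The means were 978 ± 89.2, 819.7 ± 28.2 and 853 ± 87.5 CPM (SD, n = 4). Casq2 fell by 0.26 (log2 FC, FDR 0.0401) on day 1, but was 0.021 with library totals, 0.061 on log2(TPM + 1) and 0.19 on the contractile scale. On day 7 its log2 FC of -0.20 (FDR 0.0823) did not pass, and it was 0.21, 0.45 and 0.53 and passed on those 3 scalings, where the medians of all genes were 0.42, 0.44 and 0.74. The day 1 call was lost without sham replicate 1 (-0.21 with FDR 0.0995), 3 (-0.23 with FDR 0.0953) or 4 (-0.26 with FDR 0.0692). It was also lost without day 1 replicate 1 (-0.28 with FDR 0.0553), 2 (-0.25 with FDR 0.0854), 3 (-0.25 with FDR 0.0856) or 4 (-0.24 with FDR 0.0678), and without day 7 replicate 4 (-0.25 with FDR 0.0545). With no filter on low counts the day 1 value was -0.24 (FDR 0.102), with the replicate number as a block it was -0.26 (FDR 0.0755), and over all alternatives its FDR ran from 0.0128 to 0.855. The day 7 value passed without sham replicate 2 (-0.26 with FDR 0.0282) or day 7 replicate 2 (-0.27 with FDR 0.0230) and with DESeq2 (-0.22, FDR 0.0274). Day 7 against day 1 gave 0.058 (FDR 0.633), -0.015 without day 7 replicate 2, and 0.39 (FDR 0.00456) on log2(TPM + 1).

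Trdn encodes triadin, which anchors calsequestrin to the release channel. Values were 355, 229.9, 255 and 293 CPM in sham replicates 1 to 4, 169, 149, 176 and 183 in day 1 AMI and 132, 167, 178 and 152 in day 7 AMI. The AMI groups overlapped each other, and in CPM all hearts of both lay below the lowest sham heart, replicate 2, which day 7 replicate 3 reached in TPM. Trdn fell by 0.74 (log2 FC, SE 0.13, FDR 0.000553) on day 1 and by 0.85 (SE 0.13, FDR 6.91e-05) on day 7. On log2(TPM + 1) these values were -0.53 and -0.36, and on the contractile scale neither passed (-0.30 with FDR 0.0551 and -0.13 with FDR 0.379). Day 7 against day 1 gave -0.10 (FDR 0.535), and 0.021, 0.17 and 0.18 with library totals, on log2(TPM + 1) and on the contractile scale.

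Hrc encodes the histidine-rich calcium-binding protein of the reticulum lumen. Its CPM was 1279, 1159, 1136 and 1104 in sham replicates 1 to 4, 545, 414, 609 and 674 in day 1 AMI and 379, 298, 419 and 315 in day 7 AMI. Sham hearts were far above both AMI groups, and the AMI groups met only where day 7 replicate 3 exceeded day 1 replicate 2. The means were 1169.7 ± 76.2, 560.4 ± 111 and 353 ± 56.3 CPM (SD, n = 4). Among the 10 genes Hrc had the lowest log2 FC in both comparisons with sham on all 5 scalings, and it fell by 1.06 (SE 0.14, FDR 9.83e-05) on day 1 and by 1.73 (SE 0.15, FDR 3.64e-07) on day 7 on the TMM scale. It fell by 0.67 (FDR 0.00162) from day 1 to day 7.

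Jph2 encodes junctophilin 2, which holds the sarcolemma and the reticulum together at the dyad. Sham replicates 1 to 4 had 731, 890.5, 853 and 693 CPM, day 1 AMI replicates 696, 625, 761 and 764, and day 7 AMI replicates 447, 367, 412 and 387. The sham and day 1 ranges overlapped, and all 4 day 7 hearts lay below them. Group means were 792 ± 94.9, 711 ± 65.6 and 403 ± 34.6 CPM (SD, n = 4). Jph2 fell by 0.97 (log2 FC, SE 0.11, FDR 3.05e-06) on day 7 against sham and by 0.82 (SE 0.10, FDR 3.17e-05) against day 1. The former was -0.41 on log2(TPM + 1) and did not pass on the contractile scale (-0.27, FDR 0.0894). The day 1 value of -0.15 (FDR 0.252) did not pass and was 0.11, 0.17 and 0.27 with library totals, on log2(TPM + 1) and on the contractile scale.

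Slc8a1 encodes the sodium-calcium exchanger NCX1, which moves calcium out across the sarcolemma. It was at 213, 169, 160.3 and 112 CPM in sham replicates 1 to 4, 239, 261, 231 and 216 in day 1 AMI and 165, 173, 158 and 165 in day 7 AMI. All 4 day 1 hearts were above every sham and day 7 heart, and in CPM the day 7 hearts lay within the sham range, in which replicate 4 was lowest, while in TPM they lay above it. The means were 164 ± 41.5, 237 ± 18.8 and 165 ± 6.33 CPM (SD, n = 4). Slc8a1 rose by 0.53 (log2 FC, SE 0.14, FDR 0.00850) on day 1 and fell by 0.52 (SE 0.14, FDR 0.00838) from day 1 to day 7. That later difference did not pass on log2(TPM + 1) (-0.28, FDR 0.133) or on the contractile scale (-0.24, FDR 0.299). Day 7 against sham gave 0.014 (FDR 0.938), with -0.0082 by DESeq2's size factors, 0.42 with library totals, 0.60 on log2(TPM + 1) and 0.72 on the contractile scale, the last 3 of which passed. The medians of all genes on those 3 scalings were 0.42, 0.44 and 0.74, so only the log2(TPM + 1) value lay above its median. On the TMM scale Slc8a1 was -0.13 without sham replicate 4 and -0.010 without day 7 replicate 2.

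Camk2d encodes the main cardiac calcium/calmodulin-dependent kinase. CPM ranged from 138 to 177 in sham, 127 to 154 in day 1 AMI and 128 to 157 in day 7 AMI, and the 3 groups overlapped, while in TPM day 7 lay above the others. No comparison passed on the TMM scale, where log2 FC was -0.21 (FDR 0.0982) on day 1, -0.17 (FDR 0.153) on day 7 and 0.041 (FDR 0.751) between them. Both comparisons with sham turned positive with library totals (0.068 and 0.24), on log2(TPM + 1) (0.10 and 0.44) and on the contractile scale (0.23 and 0.56), and the day 7 values passed there, with medians of all genes of 0.42, 0.44 and 0.74. Without sham replicate 2, the lowest sham heart, both passed on the TMM scale as lower (-0.28 with FDR 0.0305 on day 1, -0.24 with FDR 0.0425 on day 7). Day 7 against day 1 was -0.0066 without day 1 replicate 4, -0.0039 without day 7 replicate 2, and 0.34 (FDR 0.0108) on log2(TPM + 1).

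Itpr2 encodes a release channel opened by inositol trisphosphate. Its CPM was 23.3, 20.1, 26.6 and 28.6 in sham replicates 1 to 4, 20.6, 19.0, 20.7 and 20.2 in day 1 AMI and 36.7, 35.3, 37.3 and 34.9 in day 7 AMI. All 4 day 7 hearts were above every other heart, and in CPM the day 1 hearts lay at the low end of the sham range or just under it, while in TPM sham and day 1 overlapped with the higher mean on day 1. The means were 24.6 ± 3.72, 20.1 ± 0.804 and 36.0 ± 1.15 CPM (SD, n = 4). Itpr2 rose by 0.55 (log2 FC, SE 0.097, FDR 0.000232) on day 7 against sham and by 0.84 (SE 0.097, FDR 1.40e-05) against day 1, and both were positive on every scaling. On day 1 it fell by 0.29 (FDR 0.0282), but was -0.017 with library totals, 0.16 on log2(TPM + 1) and 0.16 on the contractile scale. The day 1 call was lost without sham replicate 3 (-0.25 with FDR 0.0803) or 4 (-0.21 with FDR 0.101) and without day 1 replicate 1 (-0.30 with FDR 0.0505) or 2 (-0.26 with FDR 0.0787). It was also lost with no filter on low counts (-0.28, FDR 0.0641) and with only the 2 groups fitted (-0.29, FDR 0.0585), and over all alternatives its FDR ran from 0.00343 to 0.901. Of all 10 genes, 8 were called on day 1 with every heart, 5 without day 1 replicate 1 and 5 without day 1 replicate 2.

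**Figure D2:**
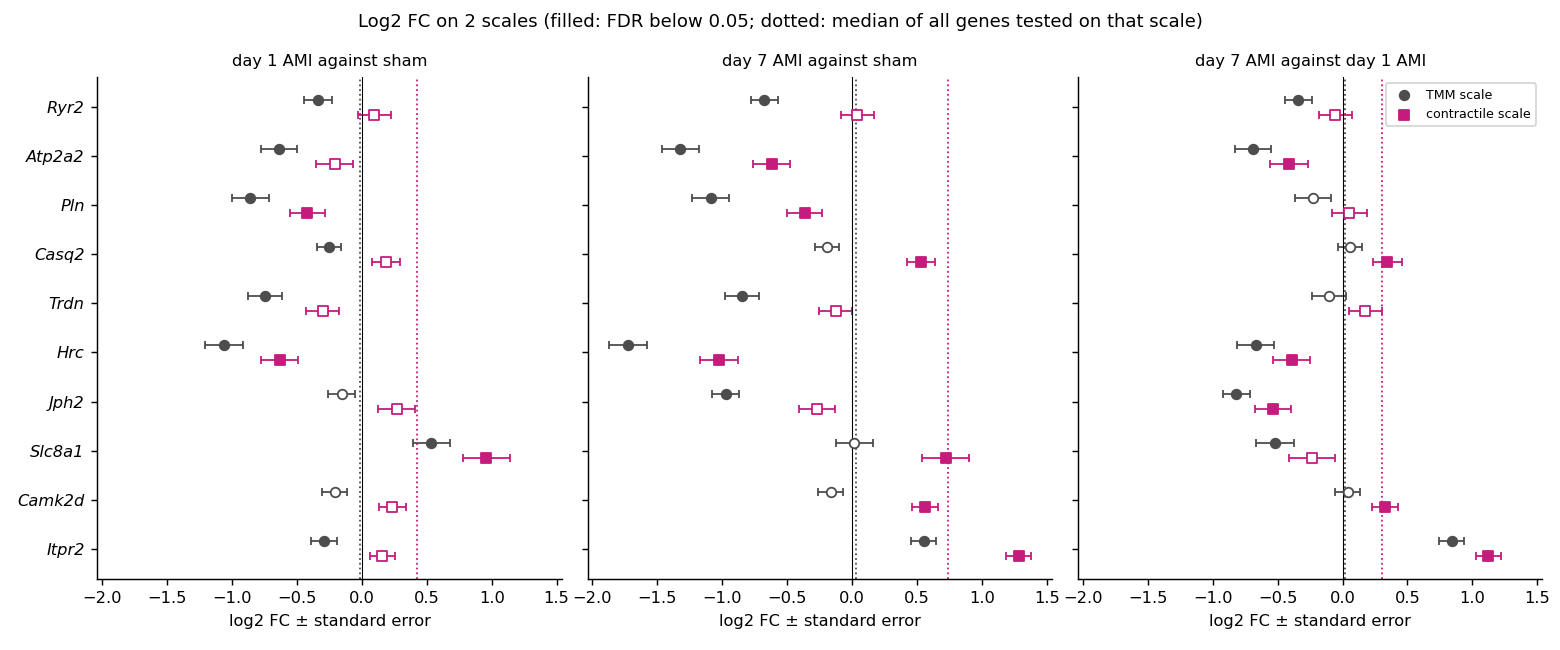
Log2 FC of each of the 10 calcium handling genes in the 3 comparisons on the TMM scale and on the contractile scale, with bars of 1 SE and the median of all genes marked for each scale. Hrc and Atp2a2 lie lowest on both scales on day 7 against sham, Jph2 lies lowest on both on day 7 against day 1, and Ryr2, Casq2 and Camk2d move from below 0 on the TMM scale to above 0 on the contractile scale in both comparisons with sham, where the median of all genes is 0.42 on day 1 and 0.74 on day 7.

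The contractile scale asks how each gene stood relative to contractile transcripts of the same heart. On day 1 Slc8a1 was higher (0.96, FDR 0.000465), and Pln (-0.42, FDR 0.0158) and Hrc (-0.63, FDR 0.00174) were lower. Of all genes 51.6% were higher and 3.61% lower on this scale, and the median log2 FC of the 10 genes was 0.13 against 0.42. On day 7 Atp2a2 (-0.62, FDR 0.00115), Pln (-0.37, FDR 0.0222) and Hrc (-1.03, FDR 1.15e-05) were lower. The 4 genes called higher on day 7 were Itpr2 (1.28, FDR 2.28e-08), Slc8a1 (0.72), Camk2d (0.56) and Casq2 (0.53), and of these only Itpr2 exceeded the all-gene median of 0.74. Among all genes 70.9% were higher and 4.32% lower. The median of the 10 genes was -0.043.

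Between day 1 and day 7 on the contractile scale, Atp2a2 (-0.41), Hrc (-0.39) and Jph2 (-0.54, FDR 0.00544) were lower, and Itpr2 (1.12, FDR 3.40e-07), Casq2 (0.34) and Camk2d (0.33) were higher. Of the 15306 genes tested 5957 were higher and 1031 (6.74%) lower, with a median of 0.30, and the median of the 10 genes was -0.0019. The Jph2 and Itpr2 calls held when any 1 heart was left out. The Atp2a2 call (FDR 0.0297) was lost without day 1 replicate 3 (-0.40 with FDR 0.0622) or 4 (-0.27 with FDR 0.102), or without day 7 replicate 2 (-0.37 with FDR 0.0819), 3 (-0.41 with FDR 0.0569) or 4 (-0.41 with FDR 0.0607). The Hrc call (FDR 0.0353) was lost without day 1 replicate 3 (-0.37 with FDR 0.0820) or 4 (-0.27 with FDR 0.124), or without day 7 replicate 2 (-0.34 with FDR 0.105) or 4 (-0.37 with FDR 0.0861). Casq2 (FDR 0.0188) was not called without day 1 replicate 3 (0.32 with FDR 0.0595), day 7 replicate 2 (0.25 with FDR 0.0785) or day 7 replicate 4 (0.33 with FDR 0.0530). Camk2d (FDR 0.0167) was not called without day 7 replicate 2 (0.26 with FDR 0.0638) or 4 (0.31 with FDR 0.0515). With the replicate number as a block, Atp2a2 (-0.41, FDR 0.0562) and Hrc (-0.39, FDR 0.0564) were not called.

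In the comparisons with sham on the contractile scale, Pln was not called on day 1 without sham replicate 1 (-0.33 with FDR 0.0567) or day 1 replicate 2 (-0.35 with FDR 0.0545). On day 7 it was not called without sham replicate 1 (-0.28 with FDR 0.0815) or day 7 replicate 1 (-0.30 with FDR 0.0705). Some genes passed only when a heart was left out. These were Atp2a2 on day 1 without day 1 replicate 4 (-0.35 with FDR 0.0361), Trdn on day 1 without sham replicate 3 (-0.37 with FDR 0.0313) or day 1 replicate 4 (-0.36 with FDR 0.0399), and Jph2 on day 1 without sham replicate 2 (0.42 with FDR 0.00544) and on day 7 without sham replicate 4 (-0.37 with FDR 0.0240). Scaling to the 6 less abundant contractile genes, chosen after seeing the data, also called Trdn on day 1 (-0.31, FDR 0.0401) and day 7 (-0.31, FDR 0.0346) and Jph2 on day 7 (-0.45, FDR 0.0119) as lower. It did not call Casq2 (0.17, FDR 0.218) or Camk2d (0.15, FDR 0.235) between the 2 days.

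Ratios of 2 genes within a library do not depend on library scaling, and they ask whether partners in calcium cycling changed unequally. Each was compared as a log2 count ratio with an exact two-sided permutation test of 4 hearts against 4, whose smallest p is 0.0286. Of the 15 tests, 7 reached that p with groups that did not overlap, and none passed after Benjamini-Hochberg adjustment over the 15 (0.0612 for each). As no smaller p is possible, the adjusted value of a ratio at that p depends on how many of the 15 tests reach it. The log2 ratio of Slc8a1 to Atp2a2 was -6.67, -6.94, -6.95 and -7.31 in sham replicates 1 to 4, -5.63, -5.27, -5.88 and -6.21 in day 1 AMI and -5.69, -5.35, -5.82 and -5.51 in day 7 AMI. Every AMI heart had more exchanger relative to pump transcript than any sham heart, with mean differences of 1.22 on day 1 and 1.38 on day 7 (exact permutation p = 0.0286 each, n = 4 per group). The log2 ratio of Itpr2 to Ryr2 was -6.82, -6.73, -6.33 and -6.16 in sham, -6.32, -6.36, -6.47 and -6.66 in day 1 AMI and -5.26, -5.28, -5.24 and -5.34 in day 7 AMI. All day 7 hearts were above the others, by a mean of 1.23 against sham and 1.17 against day 1 (exact permutation p = 0.0286 each).

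For Ryr2 to Casq2, the release channel and its luminal buffer, the log2 ratio was 1.30, 1.31, 1.07 and 1.07 in sham, 0.93, 0.95, 1.18 and 1.35 in day 1 AMI and 0.86, 0.48, 0.77 and 0.76 in day 7 AMI. Day 7 hearts were below all others, by -0.47 against sham and -0.39 against day 1 (exact permutation p = 0.0286 each). For Atp2a2 to Pln, the pump and its inhibitor, it was 1.33, 1.73, 1.53 and 1.26 in sham, 1.64, 1.64, 1.68 and 1.73 in day 1 AMI and 1.54, 0.86, 1.25 and 1.25 in day 7 AMI. The day 7 hearts were below all day 1 hearts (-0.45, exact permutation p = 0.0286) and overlapped the sham hearts (-0.24, exact permutation p = 0.171). Ryr2 to Cacna1c, the release channel and the L-type channel that triggers it, overlapped in all 3 comparisons, with differences of 0.12 on day 1, -0.017 on day 7 and -0.13 between them. Leaving out a heart gives 4 against 3, whose smallest exact p is 0.0571, so p below 0.05 could not be reached without every heart.

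**Figure D3:**
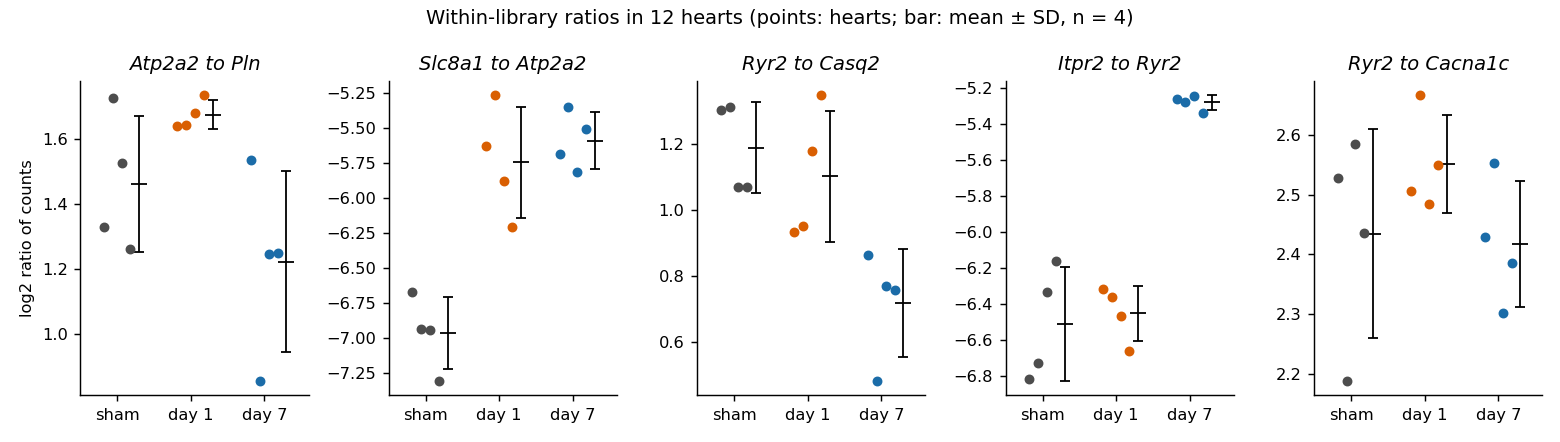
Log2 ratio of counts of 5 gene pairs in every heart of the 3 groups (sham, then AMI at 1 and 7 days, n = 4 each), where points are hearts and bars the group mean and SD. Slc8a1 to Atp2a2 is higher in all AMI hearts than in sham hearts, Itpr2 to Ryr2 is highest and Ryr2 to Casq2 lowest on day 7, and Ryr2 to Cacna1c overlaps throughout.

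Across the 12 hearts some of the genes varied together and others apart. Pearson's r of log2 CPM was 0.98 for Atp2a2 with Hrc, 0.98 for Pln with Trdn and 0.97 for Ryr2 with Atp2a2 (n = 12). Casq2 with Camk2d had r of 0.88, and Jph2 with Itpr2 -0.83. Slc8a1 had r of 0.02 with Ryr2 and -0.65 with Itpr2. These values describe 12 libraries in 3 groups, and each pair of genes shares the libraries and their scaling. Among 9081 other genes with a mean of at least 10 CPM, 2 or 3 of the 3 with the highest r to each gene are given. For Ryr2 they were Mtfr1 (0.982) and Ralgapa2 (0.980), and for Atp2a2 Gid4 (0.994), Ank1 (0.991) and Aldh5a1 (0.991). Nearest to Pln were Ube2b (0.993), Tmem65 (0.991) and Slc30a9 (0.990), and to Trdn Slc30a9 (0.986), Lrrc39 (0.985) and Stau2 (0.985). Hrc was nearest to Pygm (0.995), BC004004 (0.992) and Kcnj11 (0.991), and Casq2 to Capn7 (0.950) and Tab3 (0.910). Jph2 lay closest to Esrra (0.986), Mrpl14 (0.984) and Mrpl51 (0.982), with the day 7 mean of Esrra at 89.6 CPM against 218 in sham. Slc8a1 was nearest to Elavl1 (0.945), Mical3 (0.943) and Siah2 (0.926), Camk2d to 1810030O07Rik (0.937), Gtf2h2 (0.936) and Exoc6 (0.905), and Itpr2 to Plxdc2 (0.990), Lmo2 (0.988) and Scrn1 (0.982).

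A wider list of 92 calcium genes in 8 role groups was examined beside the 10. Of these, 90 were in the tables and 88 were tested, since Mrln and Slc8a3 did not pass the filter and Arln and Erln were not matched. On the TMM scale 25 were higher and 22 lower on day 1 (DEG rule 7 and 2), with a median log2 FC of -0.069, while on the contractile scale 44 were higher and 4 lower and on log2(TPM + 1) 37 and 6. On day 7, 24 were higher and 39 lower (DEG rule 12 and 8), with a median of -0.21, while on the contractile scale 54 were higher and 7 lower and on log2(TPM + 1) 43 and 10. Day 7 against day 1 had 16 higher and 34 lower (DEG rule 4 and 5), with a median of -0.18, while on the contractile scale 29 were higher and 14 lower and on log2(TPM + 1) 25 and 20. By the DEG rule the contractile scale gave 14 higher and 1 lower on day 1, and 26 and 1 on day 7. Between the 2 days it gave 5 and 2. For all genes the medians and called shares on each scale are those given above with the 10 genes. On the contractile scale 51.6% of all genes were higher and 3.61% lower on day 1, and 70.9% and 4.32% on day 7. Between the 2 days 5957 of 15306 genes were higher and 1031 lower on that scale. The counts of each role group are read against these shares. Whether a role group differs from them was not tested.

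Of 12 sarcolemmal calcium channel subunits, the TMM scale called 1 higher and 2 lower on day 1, 2 and 6 on day 7, and 4 and 2 between the 2 days, while the contractile scale gave 5 and 1, 7 and 1, and 4 and 2. Cacna1c, the pore of the L-type channel, averaged 414 ± 55.7 CPM after sham surgery, 303 ± 45.5 on day 1 and 263 ± 22.5 on day 7 (SD, n = 4), and neither AMI group overlapped sham in CPM, though both did in TPM. It fell by 0.45 on day 1 (FDR 0.00860) and by 0.66 on day 7 (FDR 0.000324), though neither passed on log2(TPM + 1) (-0.029 and -0.11) or on the contractile scale (-0.035 and 0.040). The medians of all genes there were 0.23 and 0.44 on log2(TPM + 1) and 0.42 and 0.74 on the contractile scale. Cacnb3, an auxiliary beta subunit, rose by 2.12 on day 7 (FDR 2.44e-06) and by 1.59 from day 1. Cacng6, a gamma subunit, fell by 1.97 on day 1 (FDR 0.000635) and by 2.47 on day 7 (FDR 5.04e-05). Cacnb4 rose by 1.02 from day 1 to day 7 (FDR 0.0106). Rrad, an inhibitor of the L-type channel, was at -0.56 on day 7 (FDR 0.0158), but at 0.044 on log2(TPM + 1) and 0.15 on the contractile scale. The medians of all genes there were 0.44 and 0.74. The Rrad call was lost without sham replicate 3 (-0.42, FDR 0.0614) or day 7 replicate 2 (-0.49, FDR 0.0509), and from day 1 to day 7 Rrad fell by 0.97 (FDR 0.000610).

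Among 13 genes of the release channel family and its regulators the TMM scale called 3 higher and 5 lower on day 1, 5 and 6 on day 7, and 1 and 3 between the 2 days, while the contractile scale gave 5 and 3, 7 and 2, and 5 and 2. Dhrs7c, a reticulum short-chain dehydrogenase, fell by 1.31 on day 1 (FDR 0.000142) and by 1.28 on day 7 (FDR 4.59e-05). Cmya5, a dyad protein, fell by 1.53 on day 7 (FDR 7.93e-06). On the contractile scale 0 genes of this group met the DEG rule as lower in either comparison with sham. The lowest log2 FC there was -0.86 on day 1 and -0.83 on day 7. S100a1, a calcium sensor that binds the release channel, fell by 0.71 on day 1 (FDR 0.000144) and by 0.64 on day 7 (FDR 8.95e-05), where log2(TPM + 1) (-0.11, FDR 0.337) and the contractile scale (0.070) did not call it. The day 7 medians of all genes on those 2 scalings were 0.44 and 0.74. Of the channel-binding immunophilins, Fkbp1a rose by 0.53 on day 1 (FDR 0.000324) and Fkbp1b by 1.18 on day 7 (FDR 0.0139), while the day 1 value of Fkbp1b (FDR 0.335) did not pass. Fkbp1a was also higher on day 7 against sham whichever heart was left out (0.34 to 0.40, FDR 0.000716 to 0.00640). Ryr1, the skeletal muscle receptor, had 1 to 5 counts in sham, 8 to 19 in day 1 AMI and 9 to 21 in day 7 AMI, near the floor of 3 counts, which covers counting error only. It was called higher on day 1 and day 7, but not on log2(TPM + 1) (FDR 0.811 and 0.157), and the day 1 call (FDR 0.0285) was lost without sham replicate 3 (FDR 0.0808), day 1 replicate 1 (FDR 0.0696) or day 1 replicate 4 (FDR 0.0690).

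Of 13 pumps, exchangers and small regulators 9 were tested, and the TMM scale called 2 higher and 1 lower on day 1, 2 and 2 on day 7, and 2 and 2 between the 2 days, while the contractile scale gave 4 and 0, 6 and 0, and 3 and 0. Slc8a2, a second sodium-calcium exchanger, had 14 to 30 counts in sham, 78 to 102 in day 1 AMI and 55 to 91 in day 7 AMI. It rose by 1.59 on day 1 (FDR 0.000144) and by 1.29 on day 7 (FDR 0.000251). Atp2a1, the skeletal muscle pump, fell by 1.15 on day 7 (FDR 0.0153), and this was lost without sham replicate 4 (-0.93, FDR 0.0588), with library totals (-0.74, FDR 0.0841), on log2(TPM + 1) (-0.21, FDR 0.205) and on the contractile scale (-0.41, FDR 0.325). Hax1, a phospholamban-binding protein, rose by 0.52 on day 1 (FDR 0.00107) and fell by 0.66 from day 1 to day 7 (FDR 0.000133), a fall that did not pass on the contractile scale (-0.37, FDR 0.0561). Strit1, which encodes a small pump activator, had 5 to 25, 8 to 22 and 1 to 7 counts in the 3 groups, so few that its calls are given without a fold, while its deposited TPM was 33.6 to 131, 33.7 to 131 and 5.28 to 44.0. How so few counts gave such TPM is not stated. Its call as lower on day 7 against sham (FDR 0.0127) was lost on the contractile scale (FDR 0.0872) and without sham replicate 2 (FDR 0.0688). That against day 1 (FDR 0.0244) was lost on the contractile scale (FDR 0.0636) and without day 1 replicate 1 (FDR 0.0813) or 3 (FDR 0.0556) or day 7 replicate 2 (FDR 0.0666) or 3 (FDR 0.0512). Sln, which encodes the atrial pump inhibitor sarcolipin, was chosen after its values were seen because sham replicate 4 had 915 counts while the other sham hearts had 85 to 304.

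The 10 luminal calcium-binding proteins had 5 higher and 1 lower on day 1, 3 and 2 on day 7, and 4 and 4 between the 2 days, while the contractile scale gave 8 and 0, 9 and 0, and 5 and 1. Rcn3 and Rcn1, reticulocalbins of the secretory pathway, rose by 2.00 (FDR 5.11e-06) and 1.34 (FDR 6.60e-06) on day 7. Rcn3 rose by 0.71 on day 1 (FDR 0.0205), a call lost without sham replicate 1 (0.61, FDR 0.0634) or 4 (0.68, FDR 0.0513). Hspa5, the chaperone BiP, rose by 0.94 on day 1 (FDR 0.00105) and fell by 1.28 from day 1 to day 7 (FDR 6.87e-05). Srl, sarcalumenin, fell by 0.48 on day 7 (FDR 0.000356), though it was 0.099 on log2(TPM + 1) and 0.25 on the contractile scale. The medians of all genes there were 0.44 and 0.74.

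All 9 genes of dyad and T-tubule structure were tested, with 4 higher and 2 lower on day 1, 3 and 6 on day 7, and 0 and 7 between the 2 days, while the contractile scale gave 4 and 0, 3 and 3, and 0 and 5. Tcap, a titin-binding protein, fell by 1.55 on day 7 (FDR 0.000633), Jph1, a second junctophilin, by 1.23 (FDR 6.15e-07) and Tmem38a, a reticulum cation channel, by 1.00 (FDR 3.69e-07). On the contractile scale 0 genes of this group met the DEG rule as lower on day 7 against sham, and the lowest log2 FC was -0.83. Bin1, which shapes the T-tubule membrane, rose by 1.09 on day 1 (FDR 0.000505) and 1.13 on day 7 (FDR 0.000136). Cav3, caveolin 3, rose by 0.68 on day 1 (FDR 0.000119) and fell by 1.37 from day 1 to day 7 (FDR 2.03e-07). Against sham, Cav3 fell by 0.69 on day 7 (FDR 3.00e-05), where log2(TPM + 1) (-0.13, FDR 0.318) and the contractile scale (0.030) did not call it. The medians of all genes on those 2 scalings were 0.44 and 0.74. Sypl2, mitsugumin 29, rose by 2.47 on day 1 (FDR 0.000631). Its day 7 value of 1.12 (FDR 0.0486) was lost on log2(TPM + 1) (0.23, FDR 0.319) and without sham replicate 1, 2 or 4, day 1 replicate 1, 2 or 3, or day 7 replicate 1, 2 or 4, with values from 0.69, FDR 0.195, without day 7 replicate 2 to 1.22, FDR 0.0506, without day 7 replicate 4.

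For 16 calmodulins, kinases and phosphatases the counts were 6 higher and 3 lower on day 1, 3 and 10 on day 7, and 0 and 11 between the 2 days, while the contractile scale gave 9 and 0, 8 and 1, and 3 and 4. Rcan1, which inhibits calcineurin, rose by 1.51 on day 1 (FDR 0.000135) and 1.24 on day 7 (FDR 0.000180). Camk2a, a kinase of the same family as Camk2d, fell by 1.10 on day 7 (FDR 7.94e-06). On the contractile scale the lowest log2 FC of this group on day 7 against sham was -0.39, and 0 genes met the DEG rule as lower. Ppp1r1a, an inhibitor of protein phosphatase 1, fell by 1.13 from day 1 to day 7 (FDR 0.00990). Prkaca, the catalytic subunit of protein kinase A, fell by 0.69 on day 7 (FDR 1.06e-05), but was -0.13 (FDR 0.174) on log2(TPM + 1) and 0.034 on the contractile scale. Ppp1ca, a phosphatase subunit, fell by 0.48 (FDR 0.000224), but was 0.065 on log2(TPM + 1) and 0.23 on the contractile scale. Prkaca and Ppp1ca lay below the day 7 medians of all genes on these 2 scalings, 0.44 and 0.74.

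Among 8 genes of store-operated calcium entry, the TMM scale called 2 higher and 2 lower on day 1, 3 and 0 on day 7, and 5 and 0 between the 2 days, while the contractile scale gave 4 and 0, 8 and 0, and 5 and 0. Orai2 rose by 0.83 on day 1 (FDR 0.00628) and 1.47 on day 7 (FDR 3.62e-05), while Orai1 and Orai3, with the highest mean TPM of the group, had day 7 values of -0.0091 and -0.13 that did not pass. On the contractile scale all 8 genes, Orai1 and Orai3 among them, were called higher on day 7. The lowest log2 FC there was 0.44, against a median of 0.74 for all genes. Trpc6, a cation channel, had 2 to 4 counts in sham, 7 to 17 in day 1 AMI and 20 to 37 in day 7 AMI, and was called higher on both days (FDR 0.0147 and 0.000122), though on log2(TPM + 1) the day 1 call was lost (FDR 0.0876). Its higher call on day 7 against day 1 (FDR 0.0207) was lost without day 1 replicate 2 (FDR 0.0650) or 4 (FDR 0.0655) or day 7 replicate 4 (FDR 0.0850). Of 11 genes of mitochondrial calcium uptake there were 2 higher and 6 lower on day 1, 3 and 7 on day 7, and 0 and 5 between the 2 days, while the contractile scale gave 5 and 0, 6 and 0, and 4 and 0. Mcub, which encodes an inhibitory subunit of the uniporter, rose by 1.32 on day 1 (FDR 0.00139) and 1.26 on day 7 (FDR 0.000918). Vdac1, an outer membrane channel, fell by 0.43 on day 1 (FDR 0.000742) and by 0.92 on day 7 (FDR 4.21e-07), but on the contractile scale (0.0096 and -0.20, FDR 0.940 and 0.0669) neither passed, nor did day 1 on log2(TPM + 1) (-0.12, FDR 0.216). Vdac2 fell by 0.50 on day 7 (FDR 0.000130), but was 0.12 on log2(TPM + 1) and 0.22 on the contractile scale. The medians of all genes on these 2 scalings were 0.23 and 0.42 on day 1 and 0.44 and 0.74 on day 7.

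**Figure D4:**
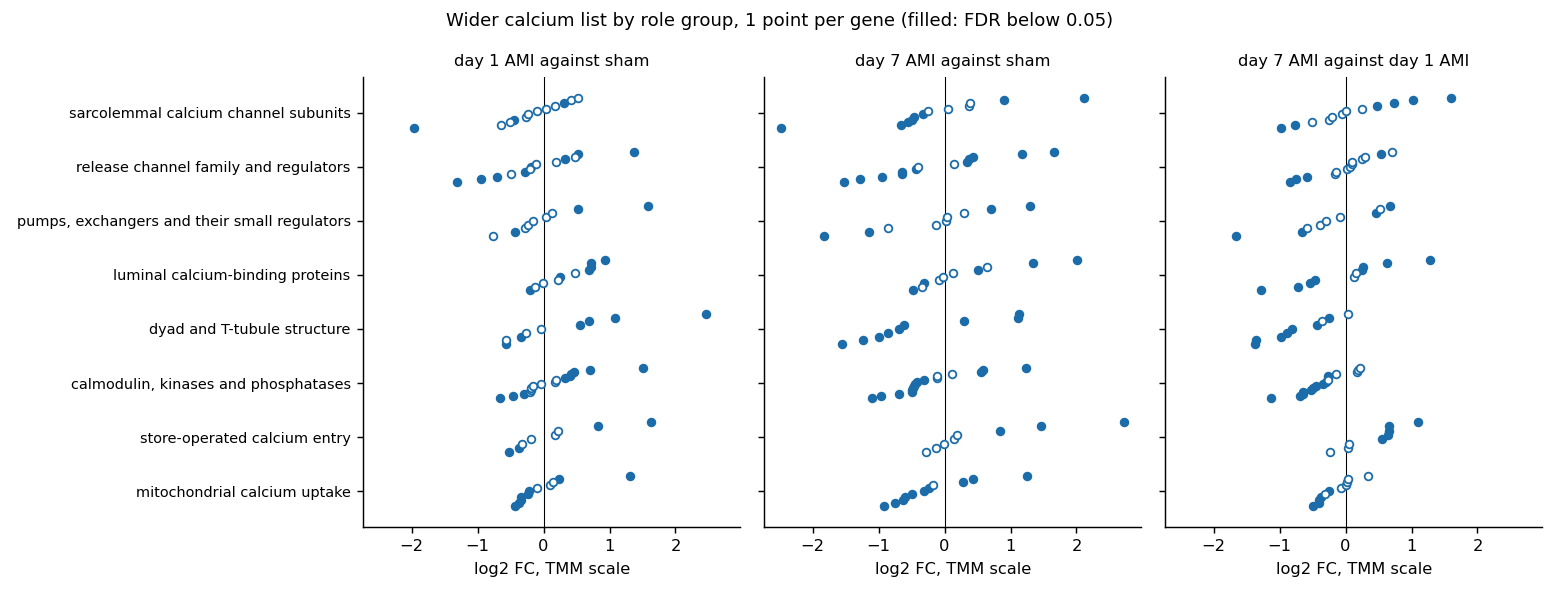
Log2 FC on the TMM scale (horizontal axis) of each tested gene of the wider calcium list, by role group and for the 3 comparisons, where each point is a gene and filled points passed edgeR's test at FDR below 0.05. The dyad and T-tubule group has 6 of 9 genes lower on day 7 against sham, where 28.4% of all genes are lower, and 7 of 9 lower on day 7 against day 1, where 22.8% are, while on the contractile scale it has 3 lower and 3 higher and then 5 lower and 0 higher.

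Markers of the cell types in whole hearts moved with the groups as well, and their part in the results above was not tested. In each list the counts called are read against all genes. On the TMM scale 22% of all genes were called higher and 19.9% lower on day 1, and 30.9% and 28.4% on day 7. Between the 2 days they were 24.2% and 22.8%. On the contractile scale these shares were 51.6% and 3.61% on day 1 and 70.9% and 4.32% on day 7. Between the 2 days 5957 of 15306 genes were higher and 1031 lower on that scale. Whether a list differs from these shares was not tested. All 12 contractile genes were tested, the most abundant in TPM was Myl2, and none was at 0 in any library. Their summed level was 53700.2, 44536, 56274 and 56671 CPM in sham replicates 1 to 4, 43418, 37891, 41152 and 36094 in day 1 AMI and 32169.5, 33305, 36536 and 31263 in day 7 AMI. Every AMI heart was below every sham heart in CPM, though in TPM the sham and day 1 sums overlapped. The tests gave 0 higher and 9 lower on day 1, 0 and 10 on day 7, and 1 and 6 between the 2 days, while the contractile scale gave 1 and 1, 5 and 4, and 1 and 4, where the 12 genes that set the scale ran from -0.65 to 0.57 on day 7 against sham. That range holds the values of Atp2a2, Pln, Casq2 and Camk2d called on this scale on day 7. The 9 fibroblast genes, led by Col3a1, summed to 1418, 1303, 1209 and 1167 CPM in sham replicates 1 to 4, 1813, 2317, 1805 and 2433 in day 1 AMI and 16571, 11201, 8325 and 11242 in day 7 AMI. All 4 day 7 hearts were far above the others, and the tests gave 6 higher and 2 lower on day 1, 9 and 0 on day 7, and 8 and 0 between the 2 days, while the contractile scale gave 6 and 0, 9 and 0, and 9 and 0. The 8 endothelial genes, led by Fabp4, summed to 1244, 1411, 1465 and 1392 CPM in sham replicates 1 to 4, 1015, 1056, 1051 and 1041 in day 1 AMI and 1673, 1521, 1692 and 1628 in day 7 AMI. In CPM day 1 hearts were lowest and day 7 hearts highest without overlap, though in TPM sham and day 1 overlapped, with 0 higher and 3 lower on day 1, 6 and 1 on day 7, and 7 and 0 between the 2 days, while the contractile scale gave 2 and 1, 8 and 0, and 7 and 0.

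The 8 smooth muscle and pericyte genes, led by Acta2, summed to 1398, 1257, 1395 and 1327 CPM in sham replicates 1 to 4, 993, 895, 996 and 915 in day 1 AMI and 1859, 1536, 1370.5 and 1326 in day 7 AMI. In CPM all day 1 hearts were below the sham hearts, but in TPM the sums overlapped with means of 399.7 in sham and 416 on day 1, and the tests gave 1 higher and 3 lower on day 1, 4 and 2 on day 7, and 3 and 0 between the 2 days, while the contractile scale gave 3 and 2, 6 and 1, and 4 and 0. The 10 monocyte and macrophage genes, led by Lyz2, summed to 409, 450.3, 319 and 291 CPM in sham replicates 1 to 4, 607, 804, 559 and 709 in day 1 AMI and 1273, 913, 826 and 1188 in day 7 AMI. The 3 groups did not overlap, and the tests gave 9 higher and 0 lower on day 1, 10 and 0 on day 7, and 4 and 0 between the 2 days, while the contractile scale gave 10 and 0, 10 and 0, and 5 and 0. Of 8 neutrophil genes 7 were tested, the most abundant was S100a8, and Ly6g, Retnlg, Mmp8 and Il1r2 were at 0 in some libraries. Their sum was 30.6, 55.7, 2.91 and 2.39 CPM in sham replicates 1 to 4, 72.6, 144, 39.7 and 63.5 in day 1 AMI and 12.4, 7.61, 11.2 and 38.5 in day 7 AMI. Day 1 replicate 2 was highest and sham replicates 1 and 2 stood above the other sham hearts, with 3 higher and 0 lower on day 1, 1 and 1 on day 7, and 0 and 5 between the 2 days, while the contractile scale gave 3 and 0, 1 and 1, and 0 and 4. Of 8 T and B lymphocyte genes 7 were tested, led by Cd79b, with Cd3d, Cd2 and Ms4a1 at 0 in some libraries. They summed to 2.398, 1.72, 5.91 and 3.15 CPM in sham replicates 1 to 4, 5.66, 3.76, 6.18 and 2.87 in day 1 AMI and 7.15, 5.68, 8.04 and 9.45 in day 7 AMI, a low level throughout, with 1 higher and 0 lower on day 1, 3 and 0 on day 7, and 1 and 0 between the 2 days, while the contractile scale gave 1 and 0, 7 and 0, and 3 and 0.

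The 6 atrial genes, led by Nppa, summed to 105, 239.5, 194 and 915 CPM in sham replicates 1 to 4, 1283, 1251, 1017 and 498 in day 1 AMI and 1379.9, 1802, 1910.4 and 1276 in day 7 AMI. Sham replicate 4 stood far above the other sham hearts, and the tests gave 1 higher and 1 lower on day 1, 2 and 1 on day 7, and 1 and 0 between the 2 days, while the contractile scale gave 1 and 1, 2 and 1, and 1 and 0. Nppa averaged 2087 TPM over the 12 libraries, against mean summed TPM of 636, 2323 and 4129 in the 3 groups. The sum therefore follows Nppa and not the list as a whole. On day 7 against sham the 6 genes ran from -5.28 to 2.73 on the TMM scale, with a median of -0.52. The 6 erythroid genes, led by Hbb-bs, summed to 1179.9, 4459, 491 and 576 CPM in sham replicates 1 to 4, 420.4, 548, 649 and 607 in day 1 AMI and 660.2, 241, 536 and 969 in day 7 AMI. Sham replicate 2 was highest, and the tests gave 0 higher and 4 lower on day 1, 0 and 4 on day 7, and 0 and 0 between the 2 days, while the contractile scale gave 0 and 2, 0 and 0, and 0 and 0. Of 8 skeletal muscle genes 5 were tested, led by Ckm, and Myh1, Myh2 and Myh4 were at 0 in some libraries. Their sum was 2885, 2671, 3324 and 3732 CPM in sham replicates 1 to 4, 2704, 2231, 2424 and 1825 in day 1 AMI and 2066, 2094, 2339.9 and 1708 in day 7 AMI, with 1 higher and 1 lower on day 1, 2 and 2 on day 7, and 1 and 2 between the 2 days, while the contractile scale gave 2 and 1, 2 and 1, and 1 and 0. Ckm averaged 2660 TPM over the 12 libraries, against mean summed TPM of 3691, 3202 and 3354 for the skeletal muscle list in the 3 groups. The sum of that list therefore follows Ckm and is not a level of skeletal muscle. On day 7 against sham the 5 tested genes ran from -1.17 to 2.79 on the TMM scale. Transcripts of the mitochondrial genome took 27.4, 17.9, 18.6 and 21.5% of the counts in sham replicates 1 to 4. Their share was 15.5, 15.4, 15.9 and 12.1% in day 1 AMI replicates 1 to 4. In day 7 AMI replicates 1 to 4 it was 13.2, 19.2, 17.2 and 14.9%. With these transcripts left out, all 30 single log2 FCs of the calcium handling genes on the TMM scale kept sign and side of the threshold. The part of this share in the marker lists was not tested.

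**Figure D5:**
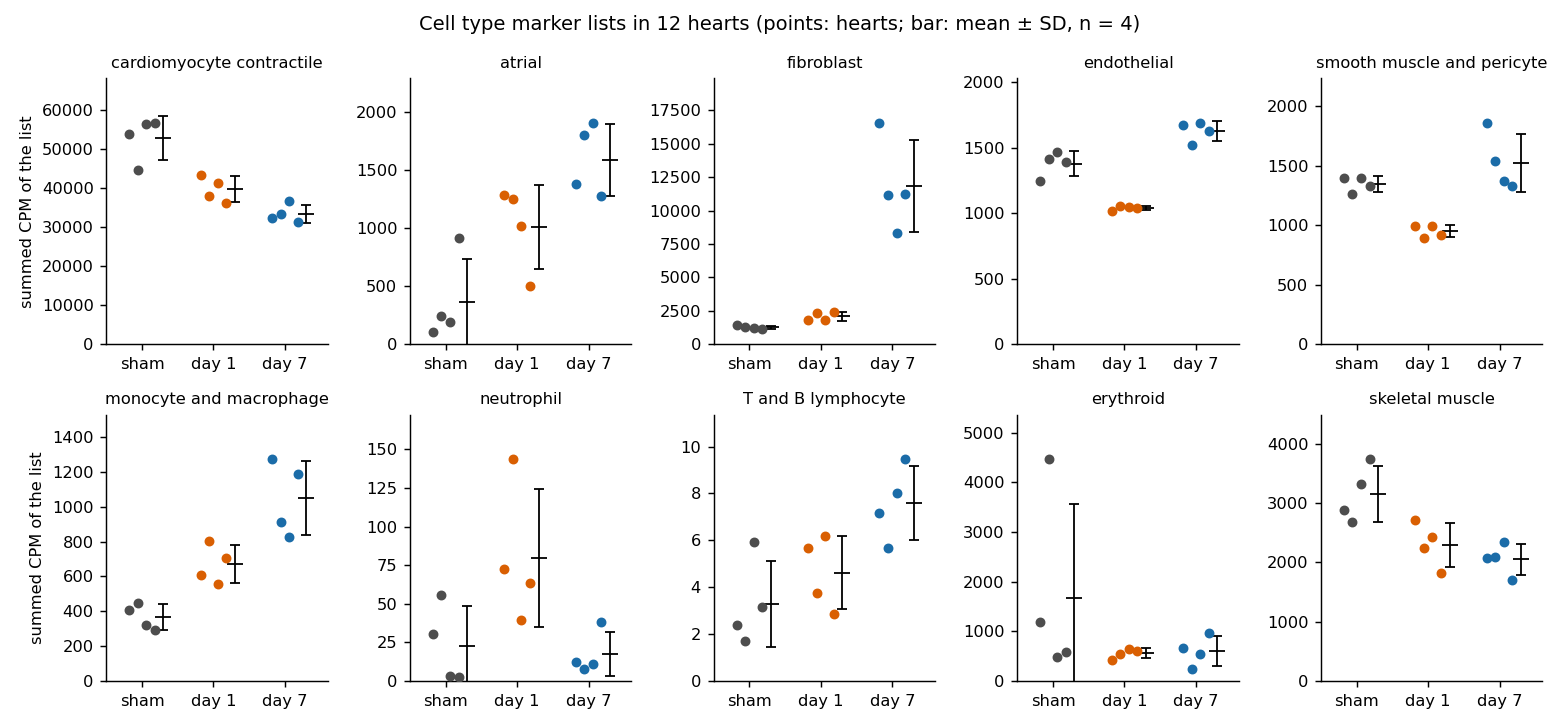
Summed CPM of each of the 10 cell marker lists in every heart of the 3 groups (sham, then AMI at 1 and 7 days, n = 4 each), where points are hearts, bars the group mean and SD, and each vertical axis starts at 0. In CPM the contractile list is lower in both AMI groups, though in TPM its sham and day 1 sums overlap, the fibroblast list is highest on day 7, and sham replicates 4 and 2 stand apart in the atrial and erythroid lists.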

How the data were processed

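RNA from 12 whole mouse hearts was sequenced, 4 after sham surgery, 4 on day 1 after AMI and 4 on day 7 after AMI, and each library was assigned by its label. The authors base-called with CASAVA 1.8, trimmed reads with Cutadapt and aligned them with STAR 2.4.0j to GRCm38 (mm10). The authors deposited raw counts, whole numbers of reads per gene without normalization, and the counting tool and strand are not stated. The authors also deposited TPM from RSEM, rounded to 2 decimals. Libraries held 23204551 to 32166517 counts. A floor of 3 counts per library covers counting error only.

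The members were taken by symbol, and the members and the lists of genes were chosen with earlier results of these data known. Of 53801 identifiers 53706 were in GENCODE M21, and all 10 members matched. Strit1 was matched as Gm34302 by its RefSeq synonym, and Arln and Erln were not matched. Tests used edgeR 4.0.16 in R 4.3.3, with TMM, filterByExpr given the 3 groups, and quasi-likelihood tests in 1 fit of 12 libraries. Log2 CPM used a prior count of 2, and standard errors were derived from the F statistic of the test. The FDR is by Benjamini-Hochberg over 15306 genes. Ratios of counts were compared with exact two-sided permutation tests (SciPy 1.17.1). Tables were handled with pandas 2.3.3 and NumPy 2.4.6 in Python 3.11.15, and figures were drawn with matplotlib 3.10.9. The code was tested on simulated data.

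The genes named were all 10 members, and of the wider list each gene past the DEG rule in a role group and comparison and the 2 of each role group with the highest mean TPM. Also named were the gene of each marker list with the highest mean TPM, 2 or 3 of the 3 genes nearest to each member by Pearson's r of log2 CPM among genes with a mean of at least 10 CPM, and the partners in the ratios. Sln was named outside these rules, after its values were seen. Replicate numbers do not pair hearts between groups.

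Alternatives were DESeq2's size factors (RLE), library totals alone, TMM without the mitochondrial genome, no filter on low counts, DESeq2 1.42.0, only the 2 groups compared, limma 3.58.1 on log2(TPM + 1) and log2(TPM + 0.1), the replicate number as a block, each heart left out in turn and a FC of 2. For the contractile scale the summed count and, chosen after seeing the data, the 6 less abundant contractile genes were also used, and for ratios TPM in place of counts.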

Additional observations from a re-analysis of the deposited data

Results flagged for a closer look

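In 2 of 45 groups of 4 hearts tested, 1 heart lay far from the other 3, with a gap to its neighbour beyond Dixon's 95% critical value for 4 values. Chance gives about 1 such group in 20. For Ryr2, day 7 AMI replicate 2 was lowest at 1367 CPM, with a gap of 0.875 of the range. For Casq2, day 1 AMI replicate 1 was highest at 862 CPM, with a gap of 0.892 of the range.

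The effect of AMI against the same sham hearts differed between day 7 and day 1 for 6 of the 10 genes on the TMM scale. The sham hearts cancel in this difference, so it is the comparison of day 7 with day 1 given above, which called 3699 higher and 3496 lower of all 15306 genes. As log2 FC, Ryr2 differed by -0.34 (FDR 0.0160), Atp2a2 by -0.69 (FDR 0.00113), Hrc by -0.67 (FDR 0.00162) and Jph2 by -0.82 (FDR 3.17e-05). The exchanger gene Slc8a1 differed by -0.52 (FDR 0.00838), and Itpr2 differed by 0.84 (FDR 1.40e-05). Ryr2 was not called with library totals (FDR 0.0922), on log2(TPM + 1) (FDR 0.203) or on the contractile scale (-0.057, FDR 0.742), and Slc8a1 was not called on the last 2 (FDR 0.133 and 0.299).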

How the results depend on the processing

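With library totals alone, 6 of 30 single log2 FCs of the 10 genes changed sign and 20 kept sign and side of the threshold. These were Casq2 on day 1 (0.021) and day 7 (0.21), Camk2d on day 1 (0.068) and day 7 (0.24), Jph2 on day 1 (0.11) and Trdn on day 7 against day 1 (0.021). On log2(TPM + 1), and in brackets on log2(TPM + 0.1), 8 changed sign and 15 kept both. These were Ryr2 0.016 (0.017), Casq2 0.061 (0.061), Jph2 0.17 (0.17), Camk2d 0.10 (0.10) and Itpr2 0.16 (0.20) on day 1. On day 7 they were Casq2 0.45 (0.45) and Camk2d 0.44 (0.45), and between the days Trdn 0.17 (0.17). Slc8a1 on day 7 was -0.0082 with RLE and -0.0082 with DESeq2, which kept 29 and 28 of 30. Without the mitochondrial genome 30 of 30 were kept, and with no filter 28. On the contractile scale, Ryr2 on day 7 was -0.021 with the summed count and -0.14 with the 6 less abundant genes, chosen after seeing the data, which also turned Pln between the days (-0.12). With those 6 genes the median of all genes shifted by 0.41, 0.56 and 0.13, and with the summed count by 0.39, 0.68 and 0.27. For all these changes the cause was not tested.

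The number of the 10 genes called on day 1, 8 in all, was 5 with library totals, 4 on log2(TPM + 1) and 4 on log2(TPM + 0.1), and 5 to 9 with a heart left out. Requiring a FC of 2 left 1, 3 and 0 on day 1, day 7 and between them, and 9, 20 and 9 of the wider list. On the contractile scale the number called ranged over 2 to 5 on day 1 and 2 to 6 between the days with a heart left out. With the replicate number as a block, 7, 7 and 6 of the 10 genes, 44, 62 and 48 of the wider list, and on the contractile scale 3, 7 and 4 of the 10 were called. Correlations of same-numbered hearts ran from -0.244 to 0.229, and 4 of 12 were over 0.1.

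With a heart left out, log2 FCs that changed sign ranged over -0.015 to 0.10 (Casq2) and -0.0066 to 0.093 (Camk2d) between the days and -0.13 to 0.16 (Slc8a1) on day 7. On the contractile scale they were Ryr2 on day 7 (-0.042 to 0.12) and between the days (-0.11 to 0.037), Pln between the days (-0.036 to 0.17) and Trdn on day 7 (-0.20 to 0.00016). Ratios with an exact permutation p of 0.0286 could not reach it with 4 hearts against 3, whose smallest p is 0.0571. Their differences ranged over -0.56 to -0.33 for Atp2a2 to Pln between the days, 1.06 to 1.37 on day 1 and 1.26 to 1.47 on day 7 for Slc8a1 to Atp2a2, and -0.52 to -0.39 on day 7 and -0.44 to -0.30 between the days for Ryr2 to Casq2. For Itpr2 to Ryr2 they were 1.13 to 1.35 on day 7 and 1.10 to 1.22 between the days. Ratios that changed sign were Itpr2 to Ryr2 on day 1 (-0.044 to 0.18) and Ryr2 to Cacna1c on day 7 (-0.099 to 0.033). As ratios of TPM, all 15 kept their sign and side.

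Whole-heart RNA does not separate cell types or infarcted from spared tissue. With 4 hearts per group, small differences can pass or miss the threshold by the choice of heart. Depth limits genes with few counts, such as Ryr1, Trpc6 and Strit1, for which counting error is large.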
